A study of Homo sapiens with 6 samples.

Results

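Kinesins are motor proteins that use ATP to walk along microtubules or to take microtubule ends apart. The genes described here are those whose symbol is KIF or KIFC followed by a number and at most 1 letter, which gave 42 of the 26485 gene symbols in the count tables. RNA was sequenced from AF22, an established human neural stem cell line made from induced pluripotent cells. The 3 control libraries came from cells with a control short hairpin RNA (shControl), whose genotype is labelled WT. The 3 knockdown libraries came from AF22 cells in which, by their label, COMMD3 and the readthrough COMMD3-BMI1 were knocked down, with a reagent that no label names and without a word on whether they are 1 clone. Whether replicates were grown as separate cultures is not labelled, and every p-value here therefore reflects library-to-library spread that may be technical only.

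Some kinesins act in cell division. They slide spindle microtubules apart, shorten microtubule ends at chromosomes, or build the central spindle on which a dividing cell is cut apart. Others carry vesicles, mitochondria and RNA along microtubules that persist between divisions, which is the work for which the family is known in axons and dendrites, and a smaller group serves cilia. By these known roles, 14 of the 42 genes were placed in a mitotic group, 15 in a transport group, 6 in a ciliary group and 7 in a group of others.

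Each table lists a whole-number read count per symbol, with totals between 7294687 and 11579849 counts per library. Levels are in CPM, the count of a gene scaled to the TMM-adjusted library size, and a count of 3, taken as the floor, was worth 0.259 to 0.42 CPM. COMMD3 was at 31.7, 29.7 and 27.6 CPM in the control libraries and 12.9, 11.3 and 10.5 CPM in the knockdown libraries (replicates 1 to 3, the order used throughout), while the difference of BMI1 did not pass (log2 change −0.07, edgeR adjusted p = 0.206). Of 12 neural stem cell markers, 11 could be tested, while HES5 was at 0 in all 6 libraries. The mean ± SD of SOX2 over 3 libraries was 287.9 ± 6.43 CPM for control and 259.9 ± 8.20 CPM for knockdown. The astrocyte marker GFAP and the neuron markers STMN2 and ELAVL4 were also at 0 in every library. Other members of these lists were detected, and 8 of 12 neuron markers and 3 of 6 astrocyte markers could be tested. The highest of each list in control were MAP2 (535.3 ± 23.5 CPM) and GJA1 (282.8 ± 9.15 CPM). Of 13632 genes tested, 33.3% passed an adjusted p of 0.05 in the quasi-likelihood test of edgeR, with Benjamini-Hochberg adjustment (15.3% as higher in knockdown and 18.1% as lower), and the groups' libraries did not overlap for 44.3%. Of the 11 neural stem cell markers, 3 were lower (27.3%; HES1, ZBTB16 and SOX2, by 0.30, 0.52 and 0.15 on the log2 scale) and 1, MSI1, was higher (9.09%; log2 change 0.13).

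Of the 42 kinesins, 36 had enough counts to be tested. Among the 6 that did not, KIF2B had no count in any library, KIF12 and KIF19 had 1 count each over the 6 libraries, and KIF25 had 1 count in control and 1 in knockdown. KIF4B, an intronless near-copy of KIF4A whose reads may be assigned to that gene, had 0 counts in control and 2 in knockdown. For these 5 genes the values say only that no transcript was detectable above the floor at this depth. KIF6 was detected in every library, with 12, 9 and 8 counts in control and 16, 17 and 10 in knockdown, too few for the test.

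Levels of different genes were compared roughly, per kilobase of exon, counting every base in any annotated exon of a gene. This length, 17720 bases for KIF1B, 16695 for KIF1A and 3345 for KIFC1, can exceed that of the transcripts made. The spread between libraries does not include that error, so the ranks below are approximate. By this measure KIF5B was the highest kinesin in control, at 58.5 ± 1.67 CPM per kilobase (SD, n = 3). KIF5B is the conventional kinesin heavy chain that most cells make. KIF20A and KIF11, both mitotic, came next at 43.2 ± 1.05 and 39.7 ± 1.30 CPM per kilobase. In the order of these levels, the control libraries of 24 of 35 neighbouring pairs did not overlap. Those of the 12 highest genes, down to KIF5C, lay apart one from the next, whereas KIF5C, KIF18B, KIF3C and KIF23 overlapped in turn, as did KIF15, KIF20B and KIF14. All tested mitotic kinesins held ranks 2 to 19 of the 36, whereas transport kinesins ran from rank 1 (KIF5B) to rank 36 (KIF5A, 0.163 ± 0.0480 CPM per kilobase). KIF1A and KIF17, known as carriers in neurons, were also low, at 0.902 ± 0.0406 and 0.594 ± 0.0841 CPM per kilobase.

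**Figure D1:**
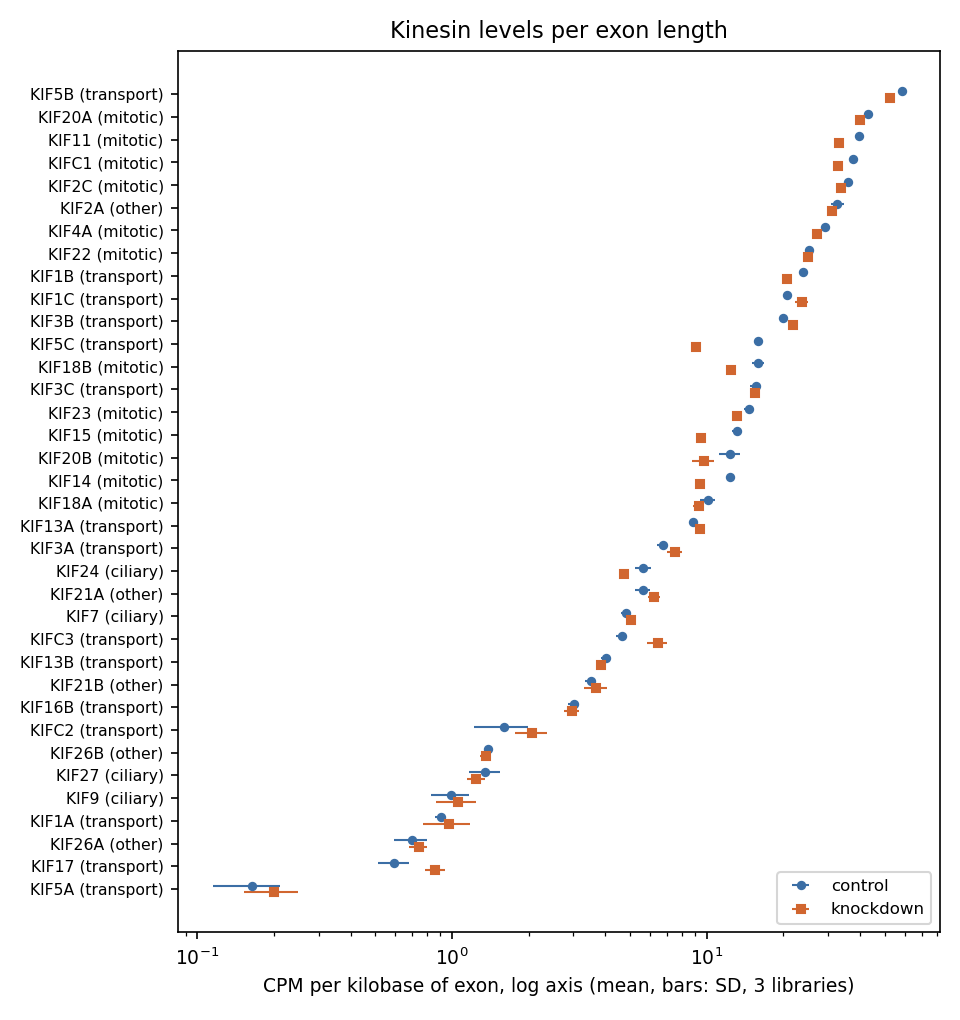
Level of each tested kinesin as CPM per kilobase of exon on a log axis (points, mean of 3 libraries; bars, SD), in control (blue circles) and knockdown (orange squares), ordered by the control level. KIF5B leads at 58.5 and KIF5A is last at 0.163 in control, and the widest gap between the groups among the 12 highest genes is that of KIF5C.

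Most tested mitotic kinesins were lower in knockdown. Of 12 tested, 8 fell (66.7%, beside 18.1% of all tested genes), none rose and the other 4 missed the threshold, and the knockdown libraries lay apart from the control libraries for 10 of the 12 (83.3%, beside 44.3%). Their median log2 change was −0.18, beside 0.0015 over all tested genes, and all 12 fitted values were below 0, from −0.47 for KIF15 to −0.0021 for KIF22. Summed over the 14 mitotic genes, the level went from 1322.3 ± 3.1 to 1156.6 ± 18.1 CPM, a change of −12.5%. In bulk RNA, fewer cells in division and less RNA per dividing cell cannot be told apart. DESeq2 called 6 lower and 0 higher, and at an unadjusted p under 0.05 edgeR also had 0 higher. Of the 12, KIF22 was the one whose fitted value became positive with another scaling, at 0.02 with library-size scaling.

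**Figure D2:**
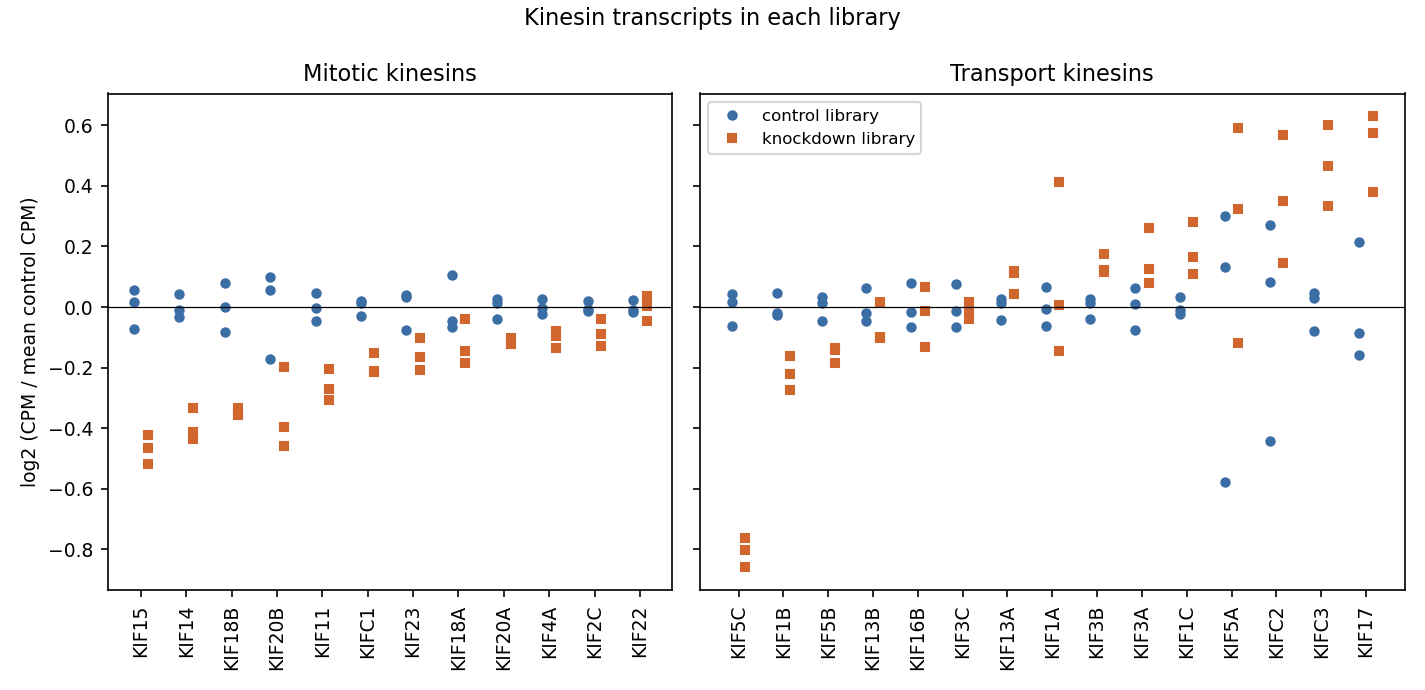
CPM of each tested mitotic kinesin (left) and transport kinesin (right) in each library, as log2 of the ratio to the mean control CPM; blue circles are control and orange squares knockdown libraries. Mitotic knockdown points lie below the control points for 10 of 12 genes, and transport points lie on both sides, with KIF5C lowest.

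Among the motors that build the spindle, KIF15 differed the most. KIF15, which cooperates with KIF11 to hold spindle poles apart, was at 72.3, 70.4 and 66.1 CPM in control and 50.4, 48.6 and 51.9 CPM in knockdown. All knockdown libraries lay below all control libraries, with a log2 change of −0.47 (SE 0.0560, edgeR adjusted p = 7.67e-08). KIF11, the motor that pushes the poles apart, was at 192.5, 186.9 and 199.5 CPM in control and 156.0, 167.5 and 159.9 CPM in knockdown. These groups did not overlap either, and KIF11 fell by 0.26 on the log2 scale (SE 0.0443, edgeR adjusted p = 3.08e-05). KIFC1, a minus-end motor that focuses the poles, fell from 126.6, 127.2 and 122.9 CPM to 108.4, 113.0 and 108.1 CPM, again without overlap (log2 change −0.20, SE 0.0444, edgeR adjusted p = 0.000962). Of the exon bases of KIFC1, 12.7% coincide with RPL12P1, an opposite-strand pseudogene, and whether the counting used strand is not given in the sources used here.

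Motors that act on chromosomes and on microtubule ends moved less, apart from KIF18B. KIF18B, which shortens the astral microtubules of the spindle, was at 74.1, 78.3 and 69.9 CPM in control and 57.8, 58.8 and 57.9 CPM in knockdown. Its knockdown libraries were close together and below every control library (log2 change −0.35, SE 0.0540, edgeR adjusted p = 6.11e-06). KIF2C, the depolymerase that corrects faulty chromosome attachments, was at 129.3, 129.9 and 132.3 CPM and then 119.5, 127.1 and 122.7 CPM. Its groups did not overlap, but its log2 change of −0.08 did not pass (SE 0.0442, edgeR adjusted p = 0.146). KIF18A, which damps the movements of chromosomes at the spindle equator, had a log2 change of −0.12 with overlapping libraries, 45.8, 50.9 and 45.1 CPM against 41.6, 46.0 and 42.7 CPM (SE 0.0652, edgeR adjusted p = 0.145).

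The chromokinesins, which bind chromosome arms, did not pass. KIF4A was at 131.9, 130.2 and 134.5 CPM in control and 120.3, 125.2 and 123.7 CPM in knockdown, without overlap (log2 change −0.10, SE 0.0437, edgeR adjusted p = 0.0702). KIF22 was at 107.7, 110.2 and 107.2 CPM in control and 111.0, 108.6 and 105.0 CPM in knockdown, and its groups overlapped throughout (log2 change −0.0021, SE 0.0450, edgeR adjusted p = 0.979). Of its exon bases, 13.0% coincide with an opposite-strand gene.

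KIF14, KIF20B, KIF23 and KIF20A, set together here as motors of cytokinesis, were called lower by different amounts, beside 18.1% of all tested genes. This set was not among the groups defined above, and KIF4A, which PRC1 recruits to the central spindle, is outside it and did not pass. KIF14, which brings citron kinase to the midbody, was at 92.5, 87.6 and 89.1 CPM in control and 67.4, 66.3 and 71.2 CPM in knockdown. The highest knockdown library was thus below the lowest control library, and the log2 change was −0.40 (SE 0.0498, edgeR adjusted p = 2.44e-07). KIF20B, needed for the final cut between daughter cells, was at 88.2, 75.3 and 90.8 CPM and then 61.7, 64.4 and 74.0 CPM. Its groups were separated by a narrow gap, between control replicate 2 and knockdown replicate 3 (log2 change −0.34, SE 0.0640, edgeR adjusted p = 9.73e-05). KIF23, the motor of the centralspindlin complex, was at 98.6, 98.96 and 91.4 CPM in control and 85.9, 89.6 and 83.4 CPM in knockdown (log2 change −0.16, SE 0.0487, edgeR adjusted p = 0.00957). It lost its call by DESeq2 (adjusted p = 0.0683) and without control replicate 2 (adjusted p = 0.051).

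KIF20A, which carries the chromosomal passenger complex to the central spindle, was at 166.2, 173.9 and 172.6 CPM in control and 157.1, 157.6 and 159.3 CPM in knockdown. Its groups did not overlap, and its fall was small (log2 change −0.11, SE 0.0427, edgeR adjusted p = 0.044). Of the exon bases of KIF20A, 5.05% coincide with the opposite-strand genes BRD8 and CDC23. The KIF20A call was lost in 9 of 13 alternative analyses, with adjusted p up to 0.162, including those without control replicate 2 or 3 or any of the knockdown replicates. KIF15, KIF14, KIF18B, KIF20B, KIF11 and KIFC1 kept their calls in all 13.

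Of 20 listed partners of the mitotic motors, all tested, 13 fell (65%, beside 18.1% of all tested genes), none rose (beside 15.3%) and 7 missed the threshold. The median log2 change was −0.15. DESeq2 called 8 of them lower and, like edgeR at an unadjusted p under 0.05, 0 higher. CENPE, a kinetochore motor that is itself a kinesin under another symbol, fell from 139.9 ± 13.7 to 92.6 ± 5.67 CPM (mean ± SD, n = 3; log2 change −0.59, SE 0.0568, edgeR adjusted p = 1.11e-09). CIT, the citron kinase that KIF14 binds, fell by 0.40 on the log2 scale, the same size as KIF14. ECT2, which starts the cleavage furrow, fell from 189.4 ± 4.19 to 160.3 ± 3.20 CPM. The following partners are named after their values were seen. RACGAP1, which forms centralspindlin with KIF23, had a log2 change of −0.14 (edgeR adjusted p = 0.0116), and PRC1, which recruits KIF4A to the central spindle, one of −0.13 (edgeR adjusted p = 0.0196). TPX2, which binds KIF11 on the spindle, had −0.06 (edgeR adjusted p = 0.33).

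Of 10 proliferation markers, 7 fell (70%, beside 18.1% of all tested genes), none rose (0 also with DESeq2, and 0 without adjustment at p under 0.05) and 3 missed the threshold. Their median was −0.18 and their summed level 2402.9 to 2587.5 CPM in the control libraries and 2044.6 to 2122.9 CPM in the knockdown libraries. MKI67, TOP2A and FOXM1 fell by 0.57, 0.38 and 0.36 on the log2 scale. The 3 that missed the threshold were the mitotic cyclins CCNB1 (log2 change 0.02, edgeR adjusted p = 0.749) and CCNB2 (−0.02, edgeR adjusted p = 0.717) and the S phase gene RRM2 (−0.02, edgeR adjusted p = 0.771), which are named after their values were seen. The lists were chosen with earlier results of these data known. Whether a lower share of dividing cells has a part in the fall of the mitotic kinesins was not tested.

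The promoters of the mitotic kinesins are shown because 8 of the 12 tested fell. Many genes with peak expression in late cell cycle phases are known to hold CCAAT boxes, bound by the factor NF-Y, and a cell cycle homology element (CHR), bound by the DREAM and MuvB complexes. Each window below is from RefSeq (GRCh38.p14), 250 bases before to 50 bases after the annotated start, written on the strand of the gene. Capitals mark matches to CCAAT or to the CHR letters TTTGAA or TTTAAA, read on both strands, so that ATTGG and TTCAAA are the same elements on the other strand. KIF15, KIF14, KIF18B and KIF20B are those with the largest falls, KIF22 is the mitotic gene nearest to 0, and KIF1C is a transport gene that rose.
KIF15, chr3:44761544-44761843, plus strand: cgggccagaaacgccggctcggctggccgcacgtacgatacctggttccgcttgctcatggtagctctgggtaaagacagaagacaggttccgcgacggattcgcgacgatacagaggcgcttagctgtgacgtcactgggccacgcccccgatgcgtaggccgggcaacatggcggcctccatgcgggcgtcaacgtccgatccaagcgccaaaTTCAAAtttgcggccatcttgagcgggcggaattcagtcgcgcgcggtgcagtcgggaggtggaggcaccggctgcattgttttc
KIF14, chr1:200620702-200621001, minus strand: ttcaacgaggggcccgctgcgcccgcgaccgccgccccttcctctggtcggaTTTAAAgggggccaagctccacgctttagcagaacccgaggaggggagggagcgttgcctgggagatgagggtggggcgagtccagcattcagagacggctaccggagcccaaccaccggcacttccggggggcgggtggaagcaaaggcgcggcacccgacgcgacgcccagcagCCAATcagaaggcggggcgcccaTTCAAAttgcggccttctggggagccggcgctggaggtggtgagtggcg
KIF18B, chr17:44947724-44948023, minus strand: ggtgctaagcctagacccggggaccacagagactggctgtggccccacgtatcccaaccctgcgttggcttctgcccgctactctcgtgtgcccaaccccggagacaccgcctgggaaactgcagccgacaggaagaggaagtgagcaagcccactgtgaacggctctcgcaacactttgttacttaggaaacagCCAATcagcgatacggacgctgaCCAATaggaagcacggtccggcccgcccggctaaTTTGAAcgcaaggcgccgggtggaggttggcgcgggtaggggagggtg
KIF20B, chr10:89701340-89701639, plus strand: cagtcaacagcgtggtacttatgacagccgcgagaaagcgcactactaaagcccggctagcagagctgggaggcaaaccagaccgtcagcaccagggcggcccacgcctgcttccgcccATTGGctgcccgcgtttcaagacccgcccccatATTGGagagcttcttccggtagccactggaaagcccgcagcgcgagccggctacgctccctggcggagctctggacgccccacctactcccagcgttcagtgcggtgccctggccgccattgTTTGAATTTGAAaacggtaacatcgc
KIF22, chr16:29790501-29790800, plus strand: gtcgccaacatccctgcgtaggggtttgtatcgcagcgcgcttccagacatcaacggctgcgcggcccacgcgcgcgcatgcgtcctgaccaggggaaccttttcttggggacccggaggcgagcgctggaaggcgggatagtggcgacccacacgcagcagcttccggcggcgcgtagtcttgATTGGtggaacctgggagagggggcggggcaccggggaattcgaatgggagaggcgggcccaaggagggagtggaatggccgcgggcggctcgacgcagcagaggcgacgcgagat
KIF1C, chr17:4997700-4997999, plus strand: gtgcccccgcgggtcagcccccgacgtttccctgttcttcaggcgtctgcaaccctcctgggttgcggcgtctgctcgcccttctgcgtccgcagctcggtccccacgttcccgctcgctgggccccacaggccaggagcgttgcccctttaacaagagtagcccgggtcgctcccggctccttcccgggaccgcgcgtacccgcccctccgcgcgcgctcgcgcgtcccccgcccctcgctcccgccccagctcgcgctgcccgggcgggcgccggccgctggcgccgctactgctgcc

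KIF15 has a CHR match and no CCAAT, KIF22 has a CCAAT and no CHR match, and KIF1C has neither. KIF14, KIF18B and KIF20B have both. Among windows not printed, KIF18A and KIF4A, mitotic genes that did not pass, have both. KIF2C, which did not pass either, has a CHR match and no CCAAT, and KIF3B, a transport gene that rose, has a CCAAT. Such matches thus also stood in mitotic kinesins that did not pass. Over the 34 kinesins with an entry, a CCAAT stood in the window of 11 of 14 mitotic genes (78.6%) and 3 of 11 transport genes (27.3%), beside 35.7% of all 27305 promoters in the table. A CHR match stood in 12 of 14 mitotic genes (85.7%) and 2 of 11 transport genes (18.2%), beside 24.3% of all promoters. Both were present in 10 mitotic genes (71.4%) and in 1 transport gene, KIF5B, beside 9.49% of all promoters. Of the 10130 promoters of tested genes, 36.7% held a CCAAT, 16.1% a CHR match and 6.49% both. The transport genes counted include KIF5C, whose window starts over 1000 bases from the GENCODE start. The mitotic genes counted include KIF2B and KIF4B, which were not tested, and KIF4B is among the 10 with both. In each of those 10 a CCAAT preceded a CHR match, with 9 to 122 bases and a median of 25.5 bases between the starts of the nearest such pair. A match describes letters and not a bound site, the mitotic group was defined by function, and no test was made.

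**Figure D3:**
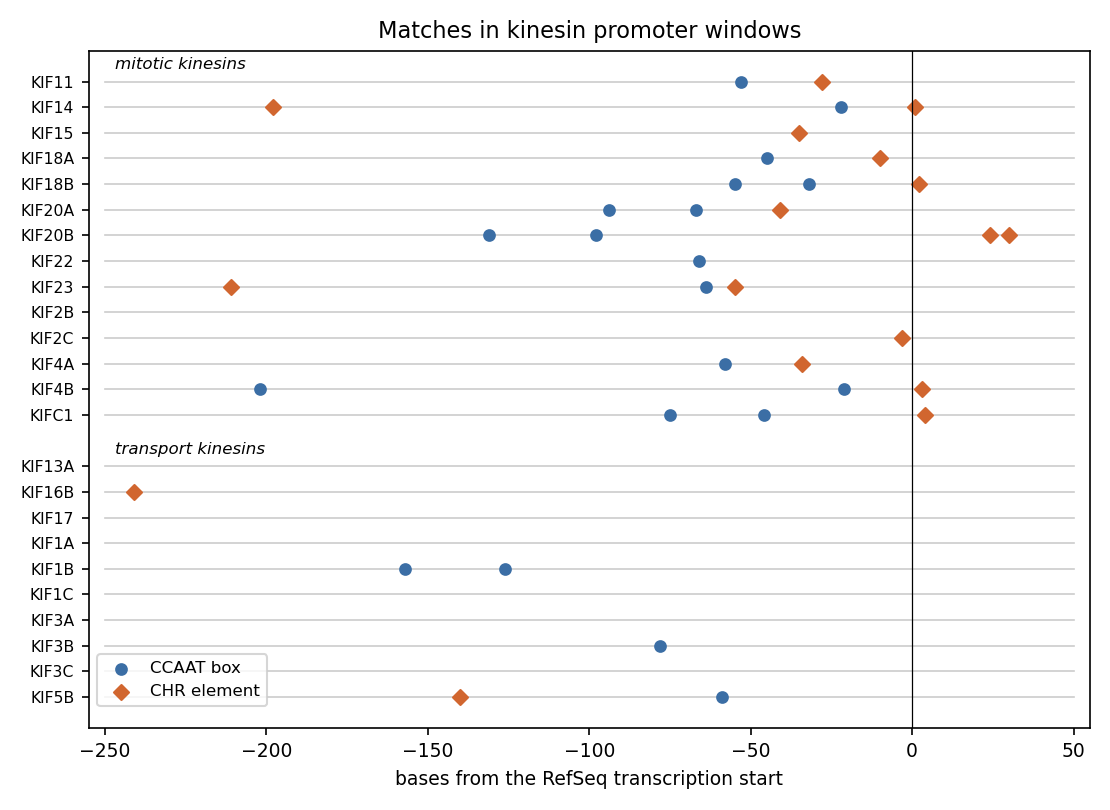
Matches to CCAAT (blue circles) and to the CHR letters (orange diamonds) in the windows of 14 mitotic and 10 transport kinesins, by distance in bases from the RefSeq start; the window of KIF5C starts over 1000 bases from the GENCODE start and is not drawn. Of the mitotic genes, 10 hold both, mostly within 100 bases of the start, and of the transport genes drawn, 1 does.

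Transport kinesins went both ways. Of 15 tested, 3 rose (20%, beside 15.3% of all tested genes), 3 fell (20%, beside 18.1%) and 9 missed the threshold, shares near those of all genes, with 9 positive and 6 negative fitted values and a median log2 change of 0.12. The libraries did not overlap for 9 of the 15 (60%, beside 44.3%). With library-size scaling, which moves the median of all genes to 0.022, 6 transport kinesins were higher and 3 lower. Of all 13632 tested genes, 2505 were then higher and 2188 lower. The summed level of the transport kinesins went from 1598.3 ± 10.9 to 1508.7 ± 35.7 CPM, a change of −5.6%. Without KIF5C it went from 1451.3 ± 13.1 to 1424.8 ± 38.3 CPM, and the knockdown range then overlapped that of control. Without KIF1B and KIF5B as well, a choice made after the values were seen, it went from 682.3 ± 10 to 750.0 ± 27.2 CPM. The 3 genes then left out are all the transport kinesins called lower, so this last sum is no evidence on the group.

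KIF5C had the largest difference of the family. KIF5C, a conventional kinesin heavy chain enriched in neurons, is encoded on the plus strand of chromosome 2, bases 148875250 to 149026759 (GRCh38, GENCODE v29), and none of its exon bases is shared with another gene. It was at 148.5, 151.5 and 140.8 CPM in control and at 86.5, 84.3 and 81.0 CPM in knockdown. Every knockdown library was far below every control library. The log2 change was −0.81 (SE 0.0467, edgeR adjusted p = 6.66e-15), or 1.755-fold lower, and 143 of the 13632 tested genes (1.05%) had a value as low or lower.

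The other conventional heavy chains did not follow in size. KIF5B was at 347.1, 332.9 and 351.7 CPM in control and 302.7, 311.6 and 313.3 CPM in knockdown. The groups did not overlap, and KIF5B fell by 0.15 on the log2 scale (SE 0.0428, edgeR adjusted p = 0.00621). With knockdown replicate 1 left out the KIF5B call was lost (adjusted p = 0.0504). KIF5A, the neuronal member mutated in a hereditary spastic paraplegia, was near the floor at 1.12, 0.686 and 1.26 CPM against 0.942, 1.28 and 1.54 CPM. These values overlapped, and the difference did not pass (log2 change 0.30, SE 0.358, edgeR adjusted p = 0.558). KIF5C gave 29.9%, 31.2% and 28.5% of the counts of the 3 genes in control libraries and 22.2%, 21.2% and 20.5% in knockdown libraries. Together the KIF5 genes went from 491.8 ± 6.03 to 394.4 ± 3.70 CPM, a change of −19.8%.

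KIF5C is known from neurons, so the neuron markers are given beside it. Of 12 listed, 8 were tested, 1 was higher (GAP43, log2 change 0.42; 12.5%, beside 15.3% of all tested genes), 3 were lower (37.5%, beside 18.1%) and 4 did not pass. The synaptic vesicle protein SYP, low at 5.84 ± 0.74 CPM in control and 3.08 ± 0.15 CPM in knockdown, fell by 0.93 on the log2 scale. The RNA-binding protein ELAVL3 fell by 0.78 and the neurofilament NEFL by 0.24. The summed level of all 12 neuron markers was 887.9 to 936.2 CPM in control and 827.0 to 860.8 CPM in knockdown libraries. Most of that sum is MAP2, which did not pass (log2 change −0.11, edgeR adjusted p = 0.0661), while STMN2 and ELAVL4 were at 0 throughout. The part of neuronal cells in the KIF5C result was not tested.

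**Figure D4:**
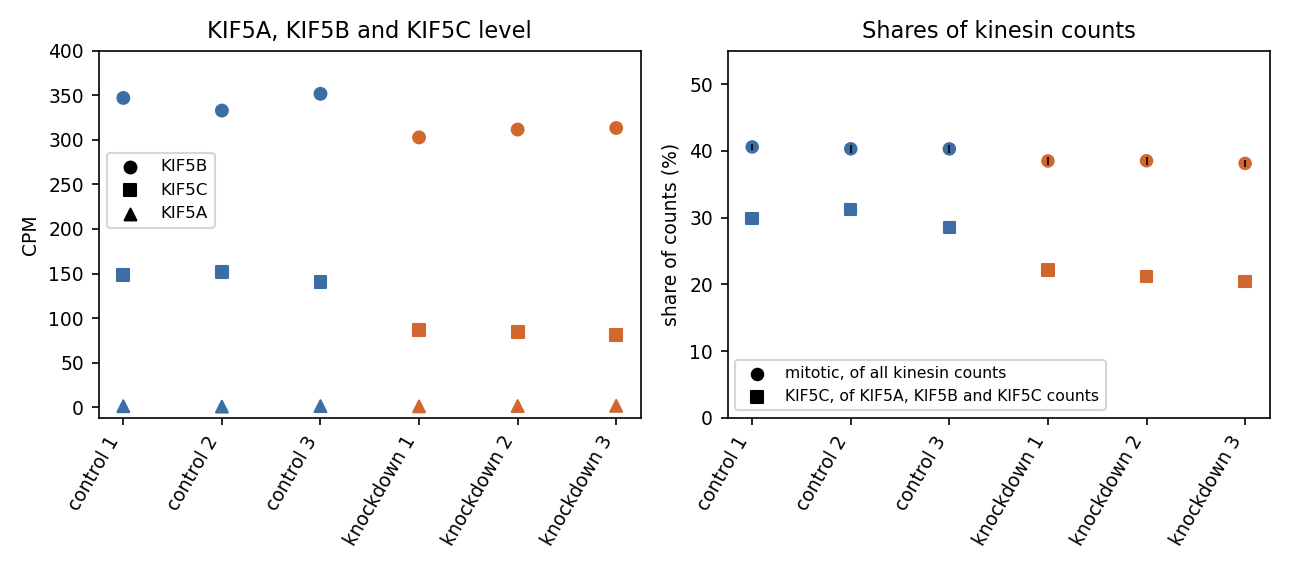
CPM of KIF5A, KIF5B and KIF5C in each library (left) and, for each library, the share of mitotic genes in all kinesin counts and of KIF5C in the counts of the KIF5 genes (right), with exact binomial intervals (95%) on the mitotic share that cover counting error only. Blue is control and orange knockdown; KIF5C drops from at least 140.8 CPM to at most 86.5 CPM, and its share from at least 28.5% to at most 22.2%.

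In the KIF1 group, KIF1B and KIF1C went opposite ways. KIF1B, which carries mitochondria and synaptic vesicle precursors, was at 417.8, 438.6 and 419.1 CPM in control and 351.9, 380.4 and 364.7 CPM in knockdown, all below control (log2 change −0.22, SE 0.0441, edgeR adjusted p = 0.000277). KIF1C, a carrier of integrin vesicles, was at 174.9, 176.8 and 181.9 CPM in control and 191.9, 199.4 and 216.1 CPM in knockdown. All its knockdown libraries were above control, with a log2 change of 0.19 (SE 0.0462, edgeR adjusted p = 0.00197). KIF1A, which carries synaptic vesicle precursors, was at between 14.4 and 15.8 CPM in control and at 13.6, 15.1 and 20.1 CPM in knockdown. Its groups overlapped and knockdown replicate 3 stood highest (log2 change 0.12, edgeR adjusted p = 0.476), and without that library the fitted value was −0.06.

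The heterotrimeric KIF3 motor joins KIF3B or KIF3C to KIF3A and serves cilia and transport in axons. KIF3B was at 118.3, 122.6 and 123.9 CPM in control and 131.8, 132.3 and 137.4 CPM in knockdown, without overlap (log2 change 0.14, SE 0.0442, edgeR adjusted p = 0.0134). The KIF3B call was lost by DESeq2 (adjusted p = 0.0617) and without control replicate 1 (adjusted p = 0.0725). KIF3A was at 48.1, 43.8 and 46.4 CPM and then 50.3, 55.2 and 48.7 CPM, above control in every library but short of the threshold (log2 change 0.15, edgeR adjusted p = 0.0673). KIF3A passed with library-size scaling (adjusted p = 0.0427) and when knockdown replicate 3 was left out (adjusted p = 0.0311). KIF3C, at 95.5, 105.4 and 98.9 CPM against 99.5, 97.2 and 101.0 CPM, overlapped fully (log2 change −0.0063, edgeR adjusted p = 0.935). KIFAP3, the accessory subunit of the KIF3 motor, rose from 65.7 ± 2.98 to 75.4 ± 3.31 CPM (log2 change 0.21, edgeR adjusted p = 0.00353). This subunit was picked with its values known.

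Of the minus-end carriers, KIFC3 had the largest rise of the kinesins that passed. KIFC3, a motor of the Golgi and of cell junctions, was at 45.4, 42.1 and 46.0 CPM in control and 61.5, 56.1 and 67.5 CPM in knockdown. The groups were well apart, with a log2 change of 0.48 (SE 0.0650, edgeR adjusted p = 9.88e-07), though 5.6% of its exon bases coincide with opposite-strand genes. KIFC2, a motor of neurons, was at 8.63, 5.26 and 7.57 CPM and then 9.11, 7.91 and 10.6 CPM, with overlap (log2 change 0.35, SE 0.160, edgeR adjusted p = 0.0919). Without control replicate 1 it passed (adjusted p = 0.0233), and 17.8% of its exon bases coincide with an opposite-strand gene.

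The remaining transport motors did not pass. KIF17, which carries receptors in dendrites, had the highest fitted value of the family at 2.50, 3.09 and 2.38 CPM against 3.46, 3.96 and 4.11 CPM. All knockdown libraries were above control, but at this low level the error was wide (log2 change 0.53, SE 0.213, edgeR adjusted p = 0.0556), and KIF17 passed with library-size scaling (adjusted p = 0.0472) and without control replicate 2 (adjusted p = 0.0491). KIF13A, an endosome motor, was at 95.8, 100.6 and 99.6 CPM and then 101.7, 106.6 and 107.2 CPM, above control in each library (log2 change 0.09, edgeR adjusted p = 0.115), and it passed when scaled by library size alone (adjusted p = 0.0492). The vesicle motor KIF13B stood at 44.6 ± 1.79 CPM in control libraries and 42.8 ± 2.05 CPM in those of knockdown (log2 change −0.05, edgeR adjusted p = 0.559). KIF16B, which moves early endosomes, had 23.2 ± 1.19 and 22.9 ± 1.58 CPM (log2 change −0.03, edgeR adjusted p = 0.81).

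Of 22 listed light chains and adaptors of the carriers, 20 were tested, and 5 rose (25%, beside 15.3% of all tested genes), 3 fell (15%, beside 18.1%) and 12 missed the threshold, 40% called beside 33.3% of all. Their median log2 change was 0.08, and DESeq2 called 2 higher and 2 lower. The light chain KLC2, which links KIF5 heavy chains to cargo, rose from 80.8 ± 3.20 to 95.2 ± 1.39 CPM (mean ± SD, n = 3; log2 change 0.24, SE 0.0479, edgeR adjusted p = 0.000205). TRAK1 and TRAK2, which couple KIF5 to mitochondria, fell by 0.21 and 0.33 on the log2 scale (edgeR adjusted p = 0.00105 and 0.000788).

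Of the ciliary group, 6 genes, 4 were tested and KIF24 was the one that changed (25% of those tested, beside 18.1% of all genes called lower). KIF24, which holds back the growth of cilia by remodelling centriolar microtubules, was at 33.9, 37.4 and 32.5 CPM in control and 29.6, 29.2 and 28.0 CPM in knockdown. The groups did not overlap (log2 change −0.26, SE 0.0754, edgeR adjusted p = 0.00813), and the call was lost by DESeq2 (adjusted p = 0.0564) and without control replicate 2 (adjusted p = 0.0676). The others of the group, among them the Hedgehog pathway regulator KIF7, lay between −0.10 and 0.07. Of 6 ependymal cell markers, 3 were tested and none changed, with C4orf22 at 0 in every library (0 at an unadjusted p under 0.05, and 0 by DESeq2). In the group of others, 5 of 7 were tested and 0 passed by edgeR or DESeq2, with 1 at an unadjusted p under 0.05, with log2 changes from −0.07 for KIF2A, a microtubule depolymerase, to 0.14 for KIF21A, which restrains microtubule growth. KIF21A lay above control in every library and passed with library-size scaling (adjusted p = 0.0445) and when knockdown replicate 3 was left out (adjusted p = 0.0252).

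**Figure D5:**
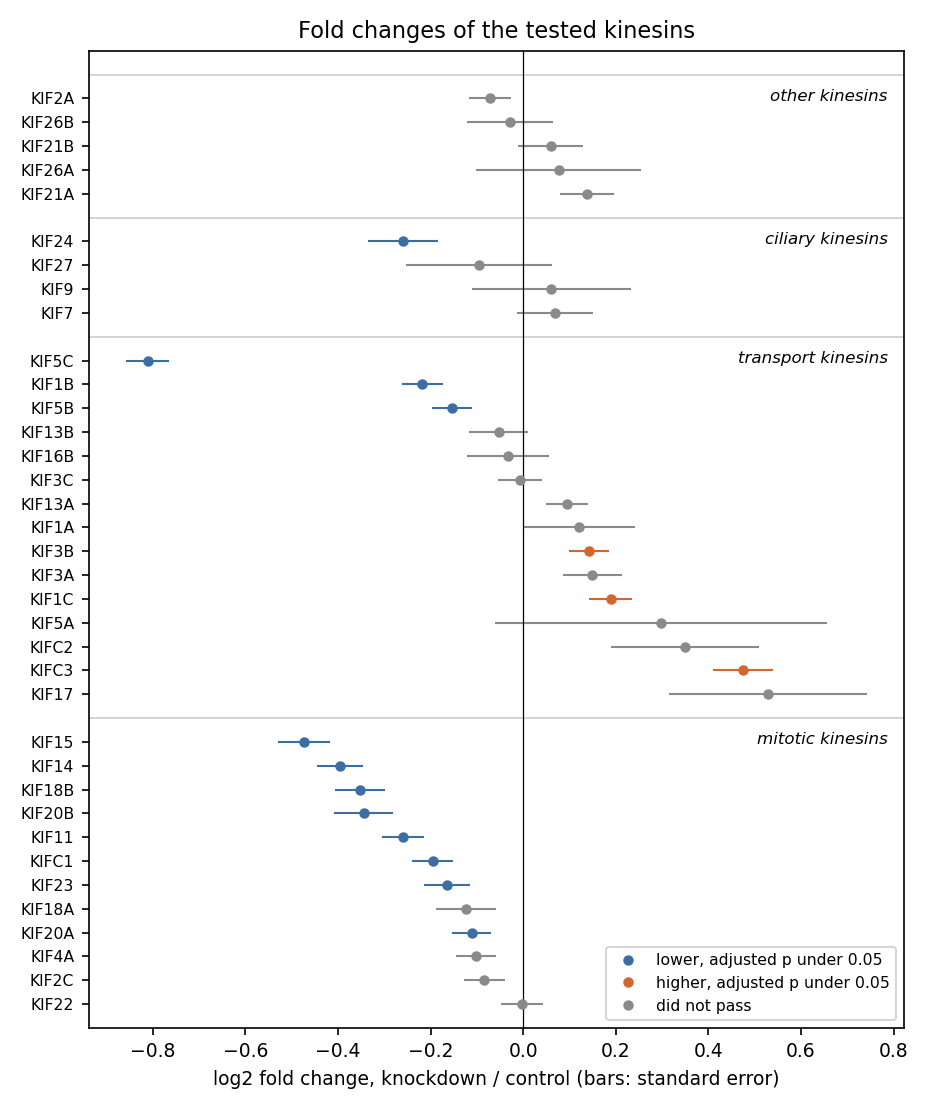
Fitted log2 change of knockdown over control for the 36 tested kinesins (points, with the standard error as bars), by group; blue passed as lower, orange as higher, and grey did not pass at an adjusted p of 0.05. Values of the mitotic group run from −0.47 to −0.0021, and those of the transport group from −0.81 to 0.53.

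Over the whole family, 15 of 36 tested kinesins changed (41.7%, beside 33.3% of all tested genes). Of the 36, 3 were higher (8.33%, beside 15.3% of all tested genes) and 12 lower (33.3%, beside 18.1%). Their median log2 change was −0.04. With library-size scaling, 7 were higher and 11 lower, beside 2505 and 2188 of all 13632 tested genes. Without knockdown replicate 3, 5 kinesins were higher, beside 1964 of 13729 tested genes. Mitotic genes gave 40.6%, 40.3% and 40.3% of the kinesin counts of the control libraries and 38.5%, 38.5% and 38.1% of those of the knockdown libraries. The exact binomial intervals (95%, counting error only) of the knockdown libraries reached at most 39.1% and those of control went down to 39.7%. The ratio of mitotic to transport counts was 0.836, 0.822 and 0.824 in control libraries and 0.774, 0.773 and 0.754 in knockdown libraries. The mitotic and transport groups were thus set side by side by their counts and medians, and the difference between them was not tested.

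An earlier analysis of these data singled out the word TCATCCA in 3′ untranslated regions of genes that were lower in knockdown, so its presence here is no independent evidence. Among tested kinesins with a 3′ untranslated region, 3 of 36 held it (8.33%, beside 12% of the 12054 tested genes with such a region). They are KIF1B, KIF24 and KIF1A, of which KIF1B and KIF24 fell. Over all tested genes, 38.7% of the 1446 with the word were lower, and 16.1% of the 10608 without it. No tested mitotic kinesin held it, nor did KIF5C. The sites, 29 bases from the longest annotated 3′ untranslated region (GENCODE v29, GRCh38) with the word in capitals, are printed because these are the only tested members with the word.
KIF1B: gacttgtgtcaTCATCCAcaaccttgttt
KIF24: tagcctggcctTCATCCAgttcaccctgc
KIF1A: atgccaatgttTCATCCAccggctgcaca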

How the data were processed

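Per the labels' protocols, total RNA went into libraries made with a directional kit. The tools named in the submitters' processing notes are bedtools, STAR 2.7.10a and Trim Galore 0.6.6, with the build hg38. The authors deposited 1 table of whole-number counts per sample, and how reads were counted, with or without strand, was not stated in those sources. Samples were grouped by title. Genes were filtered with filterByExpr and compared with the quasi-likelihood test of edgeR 4.0.16 (R 4.3.3), TMM scaling and no covariate, adjusted by Benjamini-Hochberg over the 13632 genes tested; an SE is the log2 change divided by the square root of F. No replicate pair agreed within sampling noise (chi-square per degree of freedom 1.23 to 1.994). Intervals and floors cover counting error only.

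The members, groups, lists and tests were chosen with earlier results of these data known. The naming rule took each kinesin that passed, each tested mitotic or transport kinesin, the 3 highest per exon kilobase, and up to 3 called genes of every other list. Alternatives were library-size and RLE scaling, testing without a filter or with a minimum of 1 CPM in 3 libraries, limma-voom (limma 3.58.1), DESeq2 1.42.0, an adjusted p under 0.01, the replicate number as a block, other group borders and leaving out each library. Symbols were matched to GENCODE v29 (42 of 42) and to the RefSeq promoter table (34 of 42); the table's windows for KIF5C, KIF24 and KIF25 start over 1000 bases from the GENCODE start. Protein sequences were not used here. On simulated data (13543 genes), edgeR recovered 29 of 50 genes changed 1.2-fold and 47 of 50 changed 1.5-fold. A far smaller share of genes was changed there than the 33.3% called here, which makes the adjusted threshold stricter in the simulation. These counts therefore do not give the sensitivity of this comparison.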

Additional observations from a re-analysis of the deposited data

How the results depend on the processing

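At this depth small changes are near the limit of the test, and most fitted values were stable. Of 468 values of single kinesins under other settings, 425 kept direction and side of the threshold, 16 lost their call, 11 gained one and 16 changed sign. The counts of genes changed and higher were 2877 and 1179 by DESeq2 and 2943 and 1224 at an adjusted p under 0.01, beside 4545 and 2084. Kinesins higher numbered 7 with library-size scaling, 5 with the replicate block, and 3 to 5 when each library was left out, beside 3. Transport kinesins higher numbered 6 with library-size scaling. The mitotic median stayed between −0.20 and −0.16 and the transport median between 0.08 and 0.16. Correlations of deviations were 0.00548 to 0.0792 between same-numbered libraries and −0.104 to 0.0387 between others, with 4 of 6 libraries closest to their own number. With so few libraries, these small values cannot decide whether same-numbered libraries were paired. The block called 5248 genes changed and 13 kinesins lower. With it, KIF4A (edgeR adjusted p = 0.0377), KIF3A (0.0385) and KIF21A (0.0239) gained a call.

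Sign changes concerned kinesins that did not pass. KIF22 had 0.0186 with library-size scaling and 0.0007 with the replicate block, and KIF3C 0.0144 with library-size scaling. Leaving out each library in turn gave log2 changes of −0.0774 to 0.0232 for KIF16B, −0.0623 to 0.2412 for KIF1A, −0.0215 to 0.1214 for KIF21B, −0.0178 to 0.0234 for KIF22, −0.0097 to 0.1524 for KIF26A, −0.0623 to 0.0064 for KIF26B, −0.2202 to 0.0139 for KIF27, −0.0441 to 0.0369 for KIF3C and −0.0773 to 0.198 for KIF9. The cause was not tested.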

Other observations

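Cytoplasmic dynein, the motor that moves cargo opposite to most kinesins, and its activator dynactin went both ways. Of 21 listed genes, 19 were tested, and 3 rose (15.8%), 3 fell (15.8%) and 13 did not pass, shares near the 15.3% and 18.1% of all tested genes, with a median log2 change of 0.07. The light chain DYNLL2 rose from 145.6 ± 3.70 to 180.6 ± 7.56 CPM (mean ± SD, n = 3; log2 change 0.31, edgeR adjusted p = 2.2e-06), and its 3 knockdown libraries were above all control libraries. The light intermediate chain DYNC1LI2 rose by 0.27 on the log2 scale, from 159.3 ± 3.46 to 191.5 ± 5.82 CPM (edgeR adjusted p = 1.59e-05). NDE1, a dynein regulator needed for the divisions of neural progenitors, fell from 46.6 ± 3.87 to 35.9 ± 0.539 CPM (log2 change −0.39, edgeR adjusted p = 4.45e-05), without overlap between the groups' libraries. The heavy chain DYNC1H1, named after its values were seen, was at 572.2 ± 37.1 CPM in control libraries and 550.4 ± 45.9 CPM in those of knockdown (edgeR adjusted p = 0.464).

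Of 4 tested oligodendrocyte lineage markers, 2 were lower (50%, beside 18.1% of all tested genes), with a summed level over 6 markers of 184.7 to 192.9 CPM in control and 157.7 to 165.0 CPM in knockdown libraries. Of 3 tested astrocyte markers, 1 rose and 1 fell, and of 2 tested pluripotent cell markers, 1 fell. These lists are small, and 33.3% of all tested genes were called in either direction.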
